A study of Mus musculus with 200 samples.

Results

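Grn, Ctsb, Ctsd, Ctss, Ctsz, Lamp1, Hexa, Gusb, Laptm5 and Mpeg1 are 10 genes of the lysosome and of phagocytic cells, and their transcript levels were followed in mouse brain after a closed-head injury (CHI). They were matched by gene symbol, and make up 10 of the 56941 genes in the count table, and they were selected on their log2 fold changes between CHI and sham mice in these same data. For that reason every CHI-against-sham value of these genes is given as a description, without a test. In the fit over all 4 strains, all 10 genes stood above their sham level in CHI mice at 72 h, with log2 fold changes between 0.04 and 0.37 and a median of 0.25. At 24 h the median was 0.03, and at 9 h it was 0.02, with Hexa, Laptm5 and Mpeg1 lower in CHI than in sham mice at 9 h.

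Bulk RNA-seq was done on brain from 200 mice, of which 67 had sham surgery and the others CHI, collected 9, 24 or 72 h afterwards. CHI is a single impact on the closed skull, and sham mice had the anaesthesia and the scalp incision without the impact. The 61 C57BL/6J mice were joined by 34 mice labelled IL-1R1 nRestore, 50 labelled IL-1R1 eRestore and 55 labelled IL-1R1 gKO, aged 3.3 to 7.67 months and of both sexes, except that all nRestore mice at 72 h were labelled male. The CHI and sham groups held 15 and 6 C57BL/6J mice at 9 h, 14 and 6 at 24 h and 14 and 6 at 72 h. For IL-1R1 gKO they held 13 and 6, 12 and 6, and 12 and 6 mice at these times, for eRestore 12 and 6, 9 and 5, and 12 and 6, and for nRestore 6 and 4, 8 and 5, and 6 and 5. The labels do not say which cells carry the receptor in the eRestore and nRestore mice, and the methods read here describe C57BL/6J mice only.

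Library totals lay between 14857985 and 57355676 counts, with a median of 20258936. Il1r1, which codes for the interleukin-1 receptor that the strains are named after, had a median of 5.21 CPM (counts scaled to library size) in C57BL/6J, 9.93 in mice labelled IL-1R1 gKO, 7.77 in eRestore and 9.39 in nRestore mice. It was thus not low in the mice labelled IL-1R1 gKO, and the gene-level counts do not show which exons were read, so these mice are named by their label throughout. In 2 libraries, 1 eRestore sham at 24 h and 1 nRestore CHI at 72 h, the sex read from the counts did not match the label. Among the 14 C57BL/6J CHI mice at 72 h, 1 mouse had the highest level of 8 of the 10 genes. No experiment, as the labels name them, held both 9 h mice and later mice, and with surgery in the morning the 9 h tissue was collected at another time of day, so that time after surgery, experiment and hour of collection cannot be told apart between 9 h and the later times.

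Lysosomes are acidic compartments in which proteins, sugar chains and lipids delivered by endocytosis, phagocytosis and autophagy are degraded. Cathepsins are their proteases, glycosidases such as beta-hexosaminidase and beta-glucuronidase remove sugars, and heavily glycosylated membrane proteins line the limiting membrane. All brain cells hold lysosomes, but microglia, the resident phagocytes of the brain, are rich in them and carry the genes of several cathepsins and of proteins restricted to phagocytes at high levels. Many lysosomal genes hold the E-box CACGTG in their promoters, the core of the element bound by the transcription factor TFEB and its relatives, while PU.1, the factor that defines macrophages and microglia, binds sites around GAGGAA.

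Both motifs were searched for on both strands in promoters of GRCm39, from 250 bases before to 50 bases after the start. The starts were those of the canonical transcripts of protein-coding genes in GENCODE vM39. Of 21770 promoters, 1701 (7.81%) held CACGTG, and Ctsb, Ctsd and Lamp1 were the 3 of the 10 genes that did. GAGGAA was in 5995 promoters (27.5%) and in 5 of the 10 genes, Grn, Ctsb, Ctsd, Ctss and Gusb. The matches below are shown because Ctsb, Ctsd and Lamp1 were the most abundant of the genes and varied together between mice, and because Ctss varied with the phagocyte gene Mpeg1. Each line is 30 bases written 5′ to 3′ on the strand of the gene, with the motif in capitals. Distances are from the canonical start, which for Ctsb lies within the gene's span given further on. A match in letters is a description and does not show that a factor binds there.
Ctsb, CACGTG 15 bases after the start, plus strand, chr14:63359879-63359908: gcggtcaagcatCACGTGacgaatcagccc
Ctsd, CACGTG 34 bases before the start, minus strand, chr7:141941792-141941821: tcttccttccccCACGTGacctgtatccag
Lamp1, first of 4 CACGTG matches, 21 bases before the start, plus strand, chr8:13209088-13209117: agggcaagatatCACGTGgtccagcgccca
Ctss, first of 2 GAGGAA matches, before the start, plus strand, chr3:95433921-95433950: gacacagggttgGAGGAAaactttgtcctg
Grn, first of 2 GAGGAA matches, 17 bases after the start, plus strand, chr11:102321145-102321174: tgtggggagaaaGAGGAAagggaggaggaa

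In GRCm39, Grn (progranulin, a secreted protein that is also sorted to lysosomes and cut into granulins there) lies at chr11:102321141-102327874. The cysteine proteases Ctsb and Ctsz are at chr14:63358384-63383372 and chr2:174267304-174280832, and Ctss, a cysteine protease used by antigen-presenting cells, at chr3:95433963-95463717. Ctsd, the main aspartic protease of lysosomes, is at chr7:141929646-141941775. Hexa, the alpha subunit of beta-hexosaminidase, is at chr9:59446818-59474021, and Gusb, which codes for beta-glucuronidase, at chr5:130017852-130031903. Lamp1, a major glycoprotein of the lysosomal membrane, lies at chr8:13209121-13227360. Laptm5, a lysosomal membrane protein of blood-derived cells, is at chr4:130638161-130663452, and Mpeg1, the pore-forming protein perforin-2 of macrophages, at chr19:12438114-12442649. All are protein coding, and 9 of the 10, all but Mpeg1, overlap another annotated gene. The partner is on the same strand for Ctsd (Gm49369) and Ctss (Hmgb1-ps5) and on the opposite strand for the others, and since the strandedness of the counting is not given, reads of overlapping genes cannot be told apart there.

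Levels between genes were compared per transcript length, in TPM (abundance scaled for transcript length and library size), over the 67 sham mice. Ctsb was the most abundant at 459 ± 52.8 TPM (SD), followed by Ctsd at 273 ± 33.4 and Lamp1 at 264 ± 25.4, which did not differ beyond their spread. Ctss stood at 98.0045 ± 11.5 TPM. Ctsz at 45.4 ± 5.96, Hexa at 39.4 ± 4.57 and Grn at 38.1 ± 5.33 TPM overlapped with each other and, in the case of Hexa and Grn, with Laptm5 at 31.5 ± 5.69. Mpeg1 at 17.1 ± 1.87 and Gusb at 12.7 ± 1.76 TPM were the least abundant. The highest count in a sham library was 32713 for Ctsb and 635 for Gusb, none of the genes was near the filter of 10 counts, and all 10 were tested in every fit.

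The first comparison asked how the genes differed between CHI and sham mice at 72 h. Fitted values are log2 fold changes on normalized counts, adjusted for sex and age and, over all strains, for strain. Mpeg1 had the largest value, 0.37 (standard error 0.05), followed by Laptm5 with 0.31 (0.05), Grn with 0.30 (0.04), Ctsz with 0.29 (0.05) and Gusb with 0.28 (0.05). Ctsd with 0.23 (0.04), Ctss with 0.20 (0.05) and Hexa with 0.15 (0.03) came next. Ctsb with 0.08 (0.03) and Lamp1 with 0.04 (0.03), both among the most abundant, had the smallest values. In this fit 8 of the 10 genes, all but Ctsb and Lamp1, were among the genes called at an adjusted p under 0.05 with higher levels in CHI, which made up 0.699% of the 16596 genes tested. The genes were chosen with this contrast known, so nothing is read from that count. In bulk tissue, more cells of a type and more RNA per cell cannot be told apart. Under DESeq2 with gene-length offsets 7 of the 10 were called, and in the largest experiment alone 5. The Gusb value depended on how transcript length was handled, since it was 0.15 with those offsets.

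Mpeg1 lay between 31.7 and 45.8 CPM in the 23 sham mice at 72 h (median 39.0) and between 37.7 and 93.8 CPM in the 44 CHI mice (median 47.7). In 35 of the 44 CHI mice it was above every sham mouse of the same strain, and in 43 it was above the median of those sham mice. C57BL/6J sham mice had 33.4 to 45.1 CPM with a median of 38.8, against 44.2 to 93.8 with a median of 54.1 in CHI mice, of which 12 of 14 were above all 6 sham mice. In mice labelled IL-1R1 gKO the sham range was 31.7 to 45.8 CPM (median 39.0) and the CHI range 41.4 to 62.3 (median 48.1). In eRestore mice the ranges were 36.2 to 43.9 (median 38.0) and 42.01 to 57.1 CPM (median 46.0), with 11 of 12 CHI mice above all sham mice. The 5 nRestore sham mice had 34.4, 35.3, 40.0, 40.2 and 41.5 CPM, and the 6 CHI mice 37.7 to 65.1 with a median of 48.4, of which 5 were above all sham mice. In every strain the lowest CHI mouse was thus still within the sham range.

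Grn lay between 27.6 and 51.2 CPM in sham mice at 72 h (median 38.6) and between 37.8 and 71.9 CPM in CHI mice (median 46.4). In 3 of the 4 strains the groups did not overlap. How many of all genes were without overlap was not determined, and the genes were chosen with this contrast known. Nothing is therefore read from this, or from the other counts of mice above or below all sham mice. C57BL/6J sham mice had 33.6 to 40.0 CPM (median 38.9) and CHI mice 42.5 to 71.9 (median 45.7), eRestore sham mice 27.6 to 42.1 (median 39.5) and CHI mice 42.3 to 55.9 (median 48.2). The 5 nRestore sham mice had 29.6, 35.5, 35.5, 36.4 and 37.8 CPM, against 41.8 to 46.7 (median 43.2) in the 6 CHI mice. In mice labelled IL-1R1 gKO the sham range of 30.1 to 51.2 CPM (median 41.7) covered nearly the whole CHI range of 37.8 to 51.4 (median 47.8), and 1 of 12 CHI mice was above all sham mice. The fitted Grn value was 0.40 (standard error 0.07) in C57BL/6J, 0.16 (0.09) in mice labelled IL-1R1 gKO, 0.33 (0.08) in eRestore and 0.32 (0.06) in nRestore mice.

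Laptm5 lay between 25.2 and 41.4 CPM in sham mice at 72 h (median 32.5) and between 32.4 and 61.5 in CHI mice (median 39.0). The eRestore groups did not overlap, with 31.4 to 34.6 CPM (median 33.3) in sham mice and 34.8 to 48.0 (median 38.9) in CHI mice. As for Grn, nothing is read from this. C57BL/6J sham mice had 27.6 to 37.2 CPM (median 29.8) and CHI mice 33.5 to 61.5 (median 39.4), of which 11 of 14 were above all sham mice. In mice labelled IL-1R1 gKO the ranges were 27.7 to 41.4 (median 35.5) and 32.4 to 49.8 CPM (median 42.5), with 7 of 12 CHI mice above all sham mice. The 5 nRestore sham mice had 25.2, 31.8, 32.5, 34.2 and 34.6 CPM, and the 6 CHI mice 34.3 to 43.2 with a median of 36.3.

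Of the proteases, Ctsd lay between 229 and 303 CPM in sham mice at 72 h (median 256) and between 250.2 and 470.2 in CHI mice (median 296), and 29 of 44 CHI mice were above all sham mice of their strain. Ctsz lay between 24.1 and 35.6 CPM in sham mice (median 27.3) and between 27.1 and 56.1 in CHI mice (median 34.2), with 24 of 44 CHI mice above and 1 below. For Ctss the ranges were 47.1 to 71.8 (median 58.4) and 46.8 to 98.99 CPM (median 65.5), with 16 of 44 above and 1 below all sham mice. Ctsb, at 466.4 to 655 CPM in sham mice (median 558) and 499 to 699.8 in CHI mice (median 600.3), also had 16 of 44 CHI mice above. The proteases thus differed in how far the groups were apart, Ctsd and Ctsz more than Ctss and Ctsb.

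The glycosidase Gusb lay between 9.08 and 13.8 CPM in sham mice at 72 h (median 11.4) and between 10.3 and 21.5 in CHI mice (median 13.6), with 30 of 44 CHI mice above all sham mice of their strain. Hexa lay between 31.8 and 44.7 CPM in sham mice (median 36.7) and between 32.0 and 52.3 in CHI mice (median 42.2), with 22 of 44 above and 1 below. Lamp1, the membrane protein used as a general marker of lysosomes, overlapped almost entirely, at 245 to 315 CPM (median 265) in sham mice and 236 to 329 (median 280.3) in CHI mice, with 6 of 44 above and 2 below. Lamp1 was the only one of the 10 genes whose fitted value was below 0 in any strain at 72 h, at -0.04 (standard error 0.05) in eRestore and -0.01 (0.06) in nRestore mice.

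**Figure D1:**
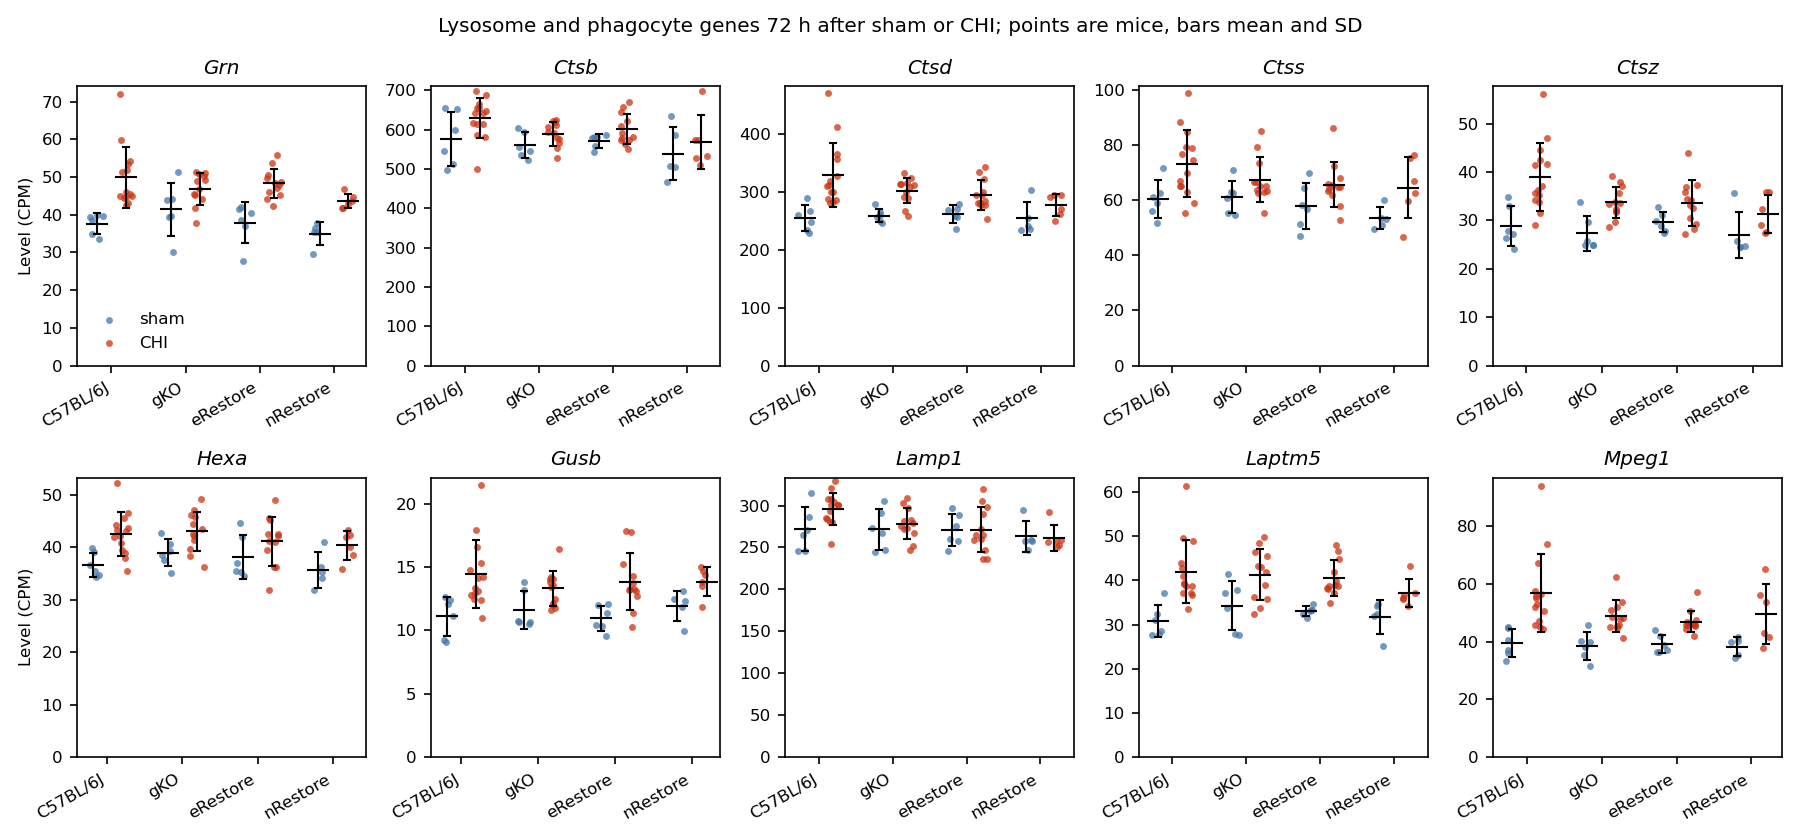
Level in CPM of each of the 10 genes at 72 h (y axis, from 0) by strain (x axis) in sham (blue) and CHI (red) mice; each point is a mouse and the bars give the mean and SD. Grn does not overlap between sham and CHI mice in C57BL/6J, eRestore and nRestore, while Lamp1 overlaps in every strain, and 1 C57BL/6J CHI mouse stands highest for Grn (71.9 CPM) and Mpeg1 (93.8 CPM). The share of all genes without overlap was not determined.

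The mouse that stood apart was highest of the 14 C57BL/6J CHI mice for every gene but Ctsb and Lamp1. It had 71.9 CPM of Grn where the next mouse had 59.7, 93.8 of Mpeg1 where the next had 73.9, and 470.2 of Ctsd where the next had 411. Over all alternatives tried at 72 h, this mouse left out among them, the C57BL/6J values stayed between 0.34 and 0.45 for Grn and between 0.40 and 0.56 for Mpeg1. Within each of the 3 experiments that held at least 2 mice of each kind at 72 h, all 10 genes were higher in CHI mice, with log2 fold changes of 0.23 to 0.43 for Grn, 0.28 to 0.41 for Mpeg1 and 0.25 to 0.29 for Laptm5. Hexa ranged from 0.05 to 0.23 and Lamp1 from 0.01 to 0.03 across these experiments.

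Fitted in each strain alone, the median log2 fold change of the 10 genes at 72 h was 0.37 in C57BL/6J, 0.18 in mice labelled IL-1R1 gKO, 0.15 in eRestore and 0.22 in nRestore mice, against medians over all tested genes of -0.0042 to -0.0016. In the fits as reported, edgeR called none of the 10 genes in a single strain. Of all genes it called 0% in C57BL/6J and in mice labelled IL-1R1 gKO, 0.00605% in eRestore and 0.0121% in nRestore mice. At an unadjusted p under 0.05 there were 869, 376, 943 and 930 genes in these 4 fits, and DESeq2 with gene-length offsets called 22, 3, 16 and 4. These DESeq2 calls held 3 of the 10 genes in C57BL/6J, 1 in eRestore and 0 in the other strains. In C57BL/6J, edgeR called 1 of the 10 without the filter, 1 with experiment in place of age and 1 without the mouse that stood apart. As above, nothing is read from these counts. C57BL/6J mice had the largest value of the 4 strains for 9 genes, all but Ctss, which was 0.23 (standard error 0.10) in C57BL/6J and 0.27 (0.11) in nRestore mice. In C57BL/6J the values were 0.49 (0.13) for Mpeg1, 0.44 (0.10) for both Ctsz and Laptm5, 0.37 (0.11) for Gusb, 0.37 (0.08) for Ctsd, 0.19 (0.06) for Hexa, and 0.13 for both Ctsb (0.06) and Lamp1 (0.05).

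Whether the CHI effect differed between strains was described by the difference from the effect in C57BL/6J, estimated in a model with an interaction term. At 72 h it was below 0 for 10 of 10 genes in mice labelled IL-1R1 gKO, 10 of 10 in eRestore and 9 of 10 in nRestore mice, with medians of -0.14, -0.12 and -0.13 on the log2 scale. Over all genes the medians of these differences were -0.0004, -0.0020 and 0.0055. The 3 differences of the 10 genes share the C57BL/6J mice and are not independent of each other. Few were beyond 2 standard errors, namely 1 gene in mice labelled IL-1R1 gKO (Grn, -0.23, standard error 0.11), 2 in eRestore (Ctsd, -0.20, 0.10; Ctsz, -0.27, 0.13) and 1 in nRestore mice (Ctsd, -0.24, 0.11). Without the C57BL/6J mouse that stood apart, an alternative chosen after seeing the data, 10, 8 and 8 of the 10 differences were below 0, the medians were -0.10, -0.08 and -0.08, and 0 genes were beyond 2 standard errors. Over all genes, edgeR called 0%, 0% and 0.00543% of 18408 genes for these differences at 72 h, with 529, 793 and 900 at an unadjusted p under 0.05. All nRestore mice at 72 h were labelled male, while the C57BL/6J groups held both sexes. The model let the CHI effect differ by strain but not by sex, so strain and sex cannot be fully told apart in the nRestore differences at 72 h. The differences at 9 h had medians between -0.04 and 0.07 and those at 24 h between 0.01 and 0.08, with 2 genes beyond 2 standard errors in 1 strain, mice labelled IL-1R1 gKO at 24 h. The 10 genes varied together between mice and were chosen with the CHI contrast known. Nothing is therefore read from how many of them were below 0 or beyond 2 standard errors.

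**Figure D2:**
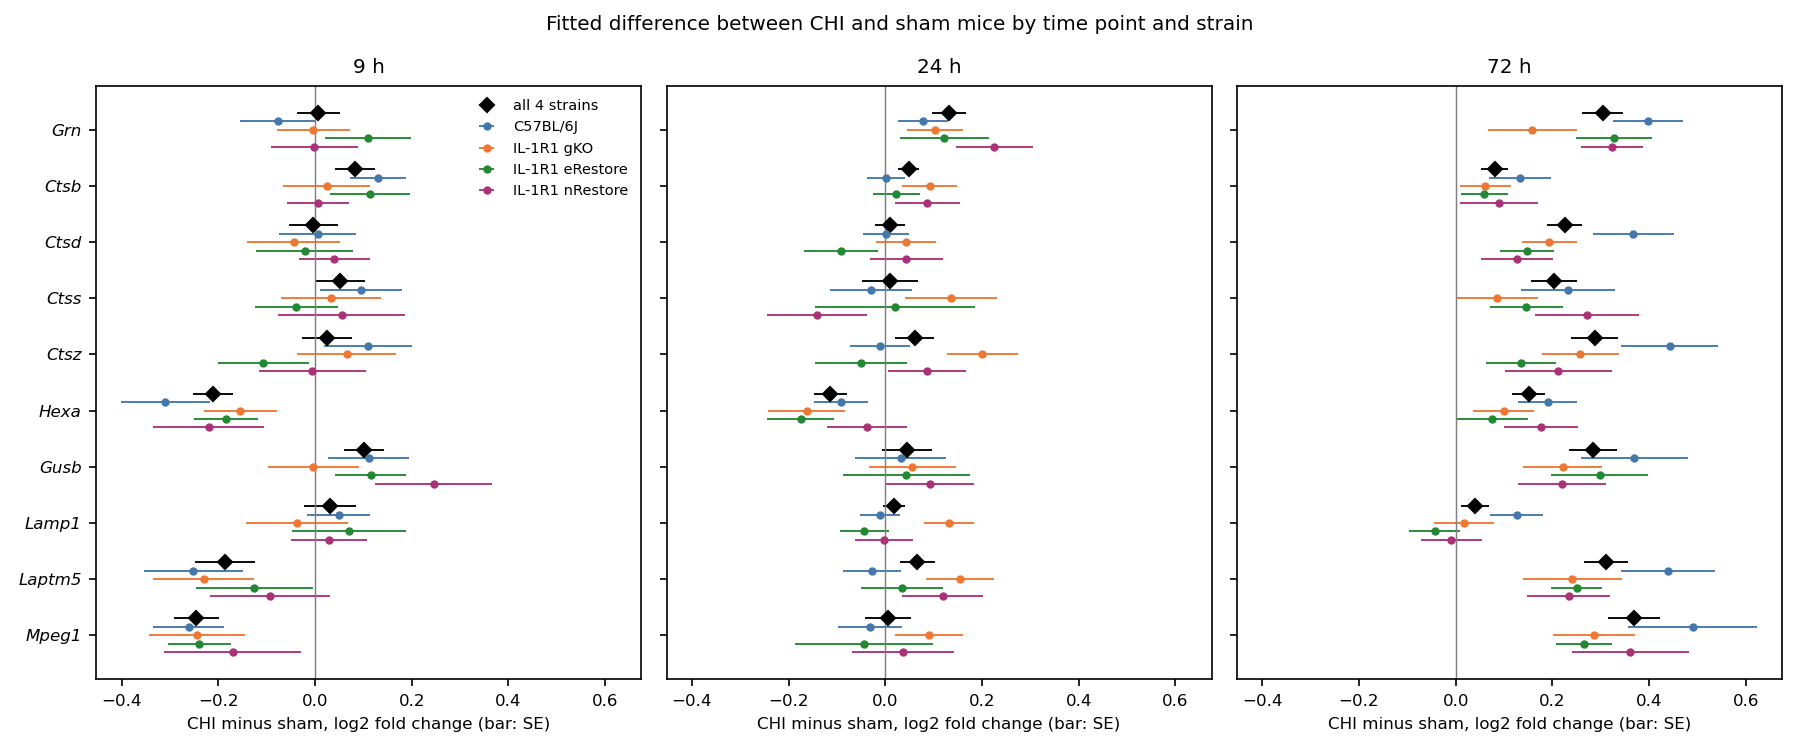
Fitted log2 fold change of CHI against sham mice (x axis; bars are standard errors) for the 10 genes (y axis) at 9, 24 and 72 h, over all 4 strains (black diamonds) and in each strain (coloured points). Hexa, Laptm5 and Mpeg1 lie left of 0 at 9 h in every strain, most values at 24 h lie near 0, and at 72 h all but the Lamp1 values of eRestore and nRestore mice lie right of 0.

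At 24 h the values were small. Over the 4 strains, Grn was the 1 gene of the 10 called, with a log2 fold change of 0.13 (standard error 0.03), where 0.826% of the 16704 genes tested were called higher. The 10 genes were chosen with these contrasts known, so nothing is read from their calls at 24 h. Grn was not called without the filter on low counts or in the largest experiment alone. It lay between 28.9 and 45.8 CPM in the 22 sham mice (median 38.7) and between 35.1 and 61.8 in the 43 CHI mice (median 42.7), so the ranges overlapped widely, and 15 CHI mice were above all sham mice of their strain. Hexa was the 1 gene lower in CHI mice, by a fitted value of -0.11 (0.03), with 34.1 to 44.7 CPM in sham (median 38.8) and 29.6 to 45.1 in CHI mice (median 37.1). Within both experiments that held enough mice of each kind, Grn was higher (0.11 and 0.16) and Hexa lower (-0.13 and -0.09). The phagocyte genes Mpeg1, with 0.01 (0.05), Laptm5, with 0.07 (0.04), and Ctss, with 0.01 (0.06), were near 0. The highest single-strain values were 0.23 (0.08) for Grn in nRestore mice and 0.20 (0.07) for Ctsz in mice labelled IL-1R1 gKO, and none of the 10 genes was called in a single strain at 24 h, where 0.404% of genes were called in C57BL/6J, 0.0059% in mice labelled IL-1R1 gKO and 0% in eRestore and nRestore mice. In the 2 strains with no call there were 1494 and 740 genes at an unadjusted p under 0.05, and DESeq2 called 38 and 5. In 1 experiment at 24 h, 18 CHI mice stood beside 1 sham mouse, a C57BL/6J mouse. At 24 h the oldest CHI mice were 7.4 months old in gKO and eRestore and 7.2 in nRestore, against 5.3 in their sham groups. Injury, experiment and age thus cannot be fully told apart in the values of these strains, or in their differences from C57BL/6J, at 24 h.

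At 9 h the genes split. Mpeg1, with -0.25 (standard error 0.05), Hexa, with -0.21 (0.04), and Laptm5, with -0.19 (0.06), were lower in CHI mice, and they were the 3 genes called in the fit over the 4 strains, in which 13.8% of the 16657 genes tested were called lower. The remaining values lay between -0.0030 for Ctsd and 0.10 (0.04) for Gusb. Grn (0.01, 0.04) and Lamp1 (0.03, 0.05) were near 0, and Ctsb was at 0.08 (0.04). In single strains, Hexa (-0.31, 0.09) and Mpeg1 (-0.26, 0.07) were called in C57BL/6J and Mpeg1 (-0.24, 0.07) in eRestore mice, where 7% and 3.24% of all genes were called lower. Called in either direction at 9 h were 14.1% of genes in C57BL/6J, 0.199% in mice labelled IL-1R1 gKO, 7.34% in eRestore and 0.608% in nRestore mice.

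Hexa lay between 28.8 and 46.5 CPM in the 22 sham mice at 9 h (median 33.8) and between 24.0 and 37.6 in the 46 CHI mice (median 29.9), and 24 of the CHI mice were below all sham mice of their strain while 0 were above. Mpeg1 lay between 29.2 and 49.6 CPM in sham mice (median 39.9) and between 23.0 and 46.7 in CHI mice (median 34.1), with 25 below and 1 above. Laptm5 ranged from 25.2 to 55.1 CPM in sham (median 36.4) and from 22.1 to 48.8 in CHI mice (median 32.9), with 15 below and 2 above. For each of the 3 genes the ranges overlapped, and the fitted value was below 0 in each of the 4 strains and in each of the 3 experiments at this time. The 4 nRestore sham mice had 30.9, 33.6, 35.5 and 39.5 CPM of Hexa, against 24.0 to 34.6 (median 31.4) in the 6 CHI mice. They had 29.2, 29.4, 37.7 and 38.1 CPM of Mpeg1, against 25.0 to 38.8 (median 28.4).

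Over the 4 strains, markers of microglia were lower in CHI mice at 9 h, as Hexa, Laptm5 and Mpeg1 were, and higher at 72 h. The median of the 10 genes was 0.02 at 9 h and 0.25 at 72 h. Of 10 genes that mark microglia at rest, such as P2ry12 and Tmem119, 8 were called lower at 9 h (median log2 fold change -0.27), and their summed level was 237 to 410 CPM in sham mice (median 296) and 167.1 to 347 in CHI mice (median 255). At 72 h, 5 of the 10, Olfml3, Csf1r, Cx3cr1, Fcrls and Tmem119, were called higher and 0 lower, the median was 0.18, and the sums were 266 to 348 CPM in sham (median 288) and 268 to 467 in CHI mice (median 336). At 24 h 0 of the 10 were called by edgeR (1 at an unadjusted p under 0.05), the median was 0.04, and the median sums were 289 and 294 CPM. The part of the microglia markers in the values of the 10 genes was not tested.

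Set against the mean log2 level of those 10 markers in the same mouse, Mpeg1 was 0.10 higher in CHI than in sham mice at 72 h, Grn 0.06 and Laptm5 0.05 higher, differences in mean below the SD of either group (0.15 to 0.22). Lamp1 was lower by -0.22, Ctsb by -0.17 and Hexa by -0.11 on this scale. At 9 h all 10 genes were higher relative to the markers, from 0.11 for Mpeg1 and 0.14 for Hexa to 0.44 for Ctsb and Gusb. These values are descriptions, since both parts come from the contrast that chose the genes.

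Markers of border macrophages and of blood leukocytes were at low levels at 72 h. Border macrophage markers (7 genes, among them Mrc1 and Cd163) summed to 4.39 to 17.3 CPM in sham (median 9.12) and 4.58 to 18.8 in CHI mice (median 11.0) at 72 h, and 0 of the 6 tested were called, although all 6 had a log2 fold change above 0 (median 0.33) and 4 an unadjusted p under 0.05. At 24 h all 7 had a log2 fold change above 0 (median 0.21), and 1 was called, Lyve1, a receptor for hyaluronan, with 0.70 (standard error 0.19, edgeR adjusted p = 0.0322). Lyve1 was called higher at 9 h too (0.71, 0.19, 0.00297), where 1 of the 4 tested was above 0 (median -0.19). Monocyte markers (4 genes) summed to at most 1.55 CPM, neutrophil markers (7) to at most 0.688 and lymphocyte markers (6) to at most 0.788 CPM in CHI mice at 72 h. Ly6g, a defining neutrophil gene, was above 0 in 5 of 200 mice. Neutrophil markers reached 12.6 CPM in 1 CHI mouse at 9 h, where the median was 0.127. Red blood cell markers (4 genes) had a median sum of 4.64 CPM in sham and 32.1 CPM in CHI mice at 9 h, with 0 of 4 called by edgeR and 3 at an unadjusted p under 0.05. Choroid plexus markers ranged from 4.80 to 1519 CPM at 72 h and from 5.14 to 3473 CPM at 9 h, where 6 of 7 were called lower in CHI mice. Neuron markers (median log2 fold change 0.03, 0 of 7 called), astrocyte markers (-0.03, 0 of 6), oligodendrocyte markers (0.01, 0 of 6) and endothelial markers (0.04, 0 of 5) were near 0 at 72 h, with 0 of these genes at an unadjusted p under 0.05. At 9 h, 3 of 6 astrocyte markers were called, with Aldh1l1 (0.31) and Gjb6 (0.42) higher and Gja1 (-0.10) lower, and 3 of 5 endothelial markers, with Cldn5 (0.36) and Pecam1 (0.24) higher and Flt1 (-0.20) lower, while 1 of 7 neuron markers (Rbfox3, 0.16) and 0 of 6 oligodendrocyte markers were called. At 24 h, Aldh1l1 was called lower (-0.15) and the neuron marker Gad2 higher (0.24). The part of these cells in the values of the 10 genes was not tested.

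The 10 genes were then placed among the rest of the lysosome, using 104 other lysosomal genes in the table, of which 102 passed the filter, and 42 other genes of phagocytes. Their genes were tested with edgeR's quasi-likelihood test and Benjamini-Hochberg adjustment over all genes. These lists were drawn up with earlier results of these data known. Their counts of calls are therefore descriptions, and no excess over the share of all genes is read from them. At 72 h, 6 of the 102 lysosomal genes were called higher and 0 lower, with a list median of 0.03, against 0.717% of all genes called. Among the 6 were the proteases Ctsh (log2 fold change 0.32, standard error 0.07, adjusted p = 0.00743), Ctsc (0.28, 0.06, 0.00378) and Lgmn (0.14, 0.03, 0.00743), and the glycosidases Man2b1 (0.25, 0.04, 1.22e-05) and Man2b2 (0.15, 0.04, 0.0109), which cleave mannose from sugar chains.

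By function, 3 of 12 other proteases and 3 of 26 other glycosidases and sulfatases were called at 72 h, with medians of 0.10 and 0.06. None of 17 lipid enzymes and other luminal proteins (median 0.06), 21 membrane proteins (0.02), 17 subunits of the vacuolar ATPase that acidifies the lysosome (0.03) and 9 receptors and transcription factors of lysosomal delivery (0.01) was called by edgeR. At an unadjusted p under 0.05 there were 6, 1, 0 and 0 genes in these groups, and DESeq2 called 4 of the 102 lysosomal genes in all. Lamp2, the closest relative of Lamp1, was at 0.06 (standard error 0.03, edgeR adjusted p = 0.68), and the cathepsin Ctsl at 0.09 (0.03, 0.214). Of the proteins that bind progranulin, Psap was at 0.08 (0.03, 0.54) and the sorting receptor Sort1 at 0.02 (0.06, 0.984), while Tmem106b, a membrane protein linked to the disease caused by loss of progranulin, was at 0.00 (0.02, 0.993). Tfeb, the transcription factor of the E-box, was at 0.04 (0.07, 0.956). A p over the threshold does not show that these genes did not differ.

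The other phagocyte genes had larger values. At 72 h, 24 of the 41 tested were called higher and 0 lower, with a list median of 0.32. Cd68, a lysosomal glycoprotein of macrophages, had a log2 fold change of 0.61 (standard error 0.08, edgeR adjusted p = 4.86e-07). Cd180 (0.72, 0.11, 7.6e-06) and Ly86 (0.56, 0.08, 1.07e-05), which regulate toll-like receptor signalling, and the complement genes C1qc (0.38, 0.06, 1.07e-05), C1qa (0.38, 0.07, 0.000142) and C1qb (0.34, 0.06, 4.18e-05) were among them. So were Plek (0.30, 0.05, 2.59e-05), Itgb2, an integrin of leukocytes (0.37, 0.06, 0.000121), Lcp1, an actin-bundling protein of leukocytes (0.29, 0.05, 0.000121), and Vav1 (0.35, 0.07, 0.000893). At this time the microglia markers given above were higher too, and their part in the list was not tested. Without the C57BL/6J mouse that stood apart, 23 phagocyte and 6 lysosomal genes were called, and without the 2 libraries whose sex did not match, 23 and 6, both added after seeing the data. In the largest experiment alone the counts were 11 and 3.

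**Figure D3:**
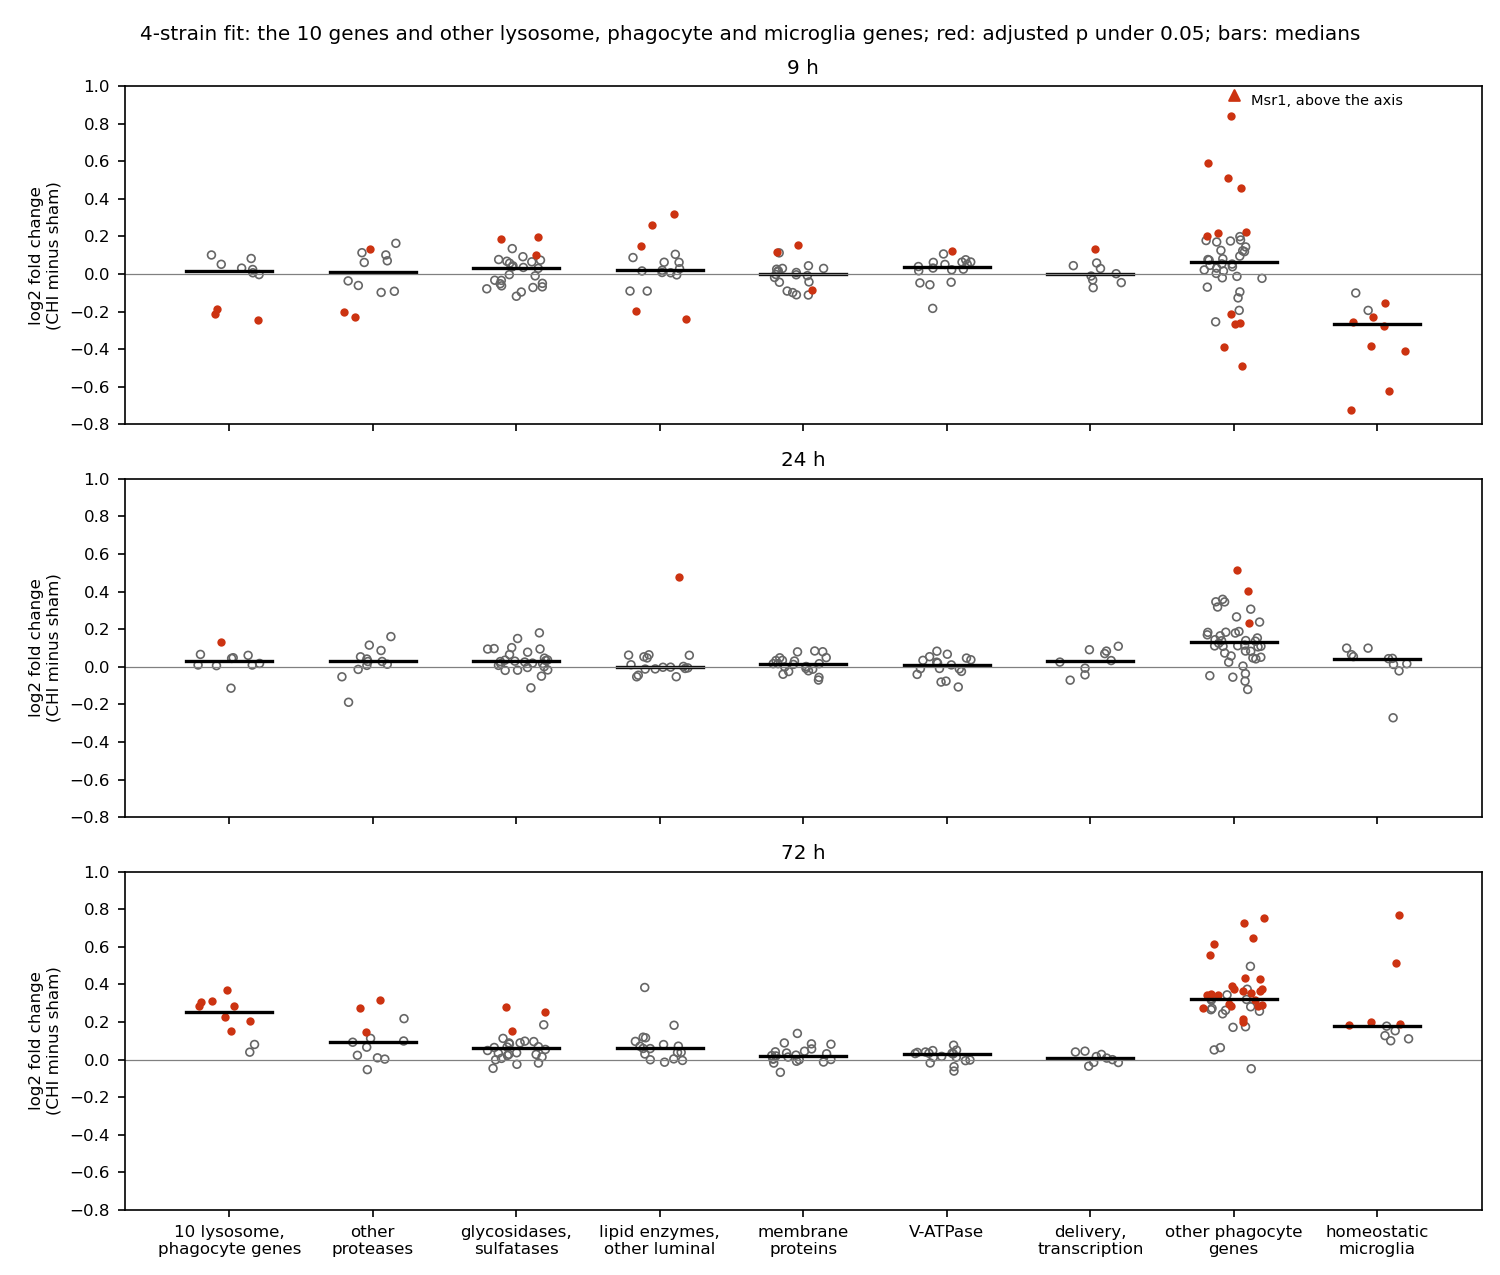
Log2 fold change of CHI against sham mice over the 4 strains (y axis) at 9, 24 and 72 h for the 10 genes and for groups of other lysosome, phagocyte and microglia genes (x axis); each point is a gene, red points have an adjusted p under 0.05 and bars are medians. At 72 h the median is 0.32 for the other phagocyte genes and 0.02 for the other lysosomal membrane proteins, and at 9 h the microglia markers have a median of -0.27; Msr1 (2.93) lies above the axis at 9 h.

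At 24 h, 1 other lysosomal gene was called, Ifi30, a thiol reductase of antigen-presenting cells (log2 fold change 0.48, standard error 0.13, edgeR adjusted p = 0.0351), and 3 other phagocyte genes, Cd68 (0.41, 0.07, 0.000438), Cd180 (0.52, 0.10, 0.00146) and Apbb1ip (0.23, 0.06, 0.0341), all higher in CHI mice, where 1.96% of all genes were called. Counts at 24 h depended on the model. Without covariates 4 lysosomal and 13 phagocyte genes were called, and in the largest experiment alone 0 and 0.

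At 9 h, where 26.5% of all genes were called, 11 of 102 other lysosomal genes were called higher and 5 lower. Creg1, a secreted glycoprotein of the endolysosome (log2 fold change 0.26, standard error 0.04, edgeR adjusted p = 1.45e-06), and Plbd2 (0.15, 0.04, 0.00218) rose, and the protease Ctsh (-0.23, 0.06, 0.00284) and the RNase gene Rnaset2b (-0.24, 0.07, 0.00689) fell. Rnaset2b and Rnaset2a (-0.20, 0.08, 0.0461) are near-identical copies between which reads may be split. Lgmn was higher at 9 h (0.13, 0.05, 0.035) as well as at 72 h. Tfe3, a relative of Tfeb, was higher by 0.13 (0.04, 0.00495).

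The phagocyte genes were called in both directions at 9 h, 8 of 42 higher and 5 lower, a share of 31.0% near the 26.5% of all genes called in that fit, so nothing is read from the count itself. The scavenger receptor gene Msr1 had the largest value, 2.93 (standard error 0.40, edgeR adjusted p = 5.69e-08), from means of 0.131 CPM in sham and 1.16 CPM in CHI mice. Cd14 (0.84, 0.13, 1.09e-06), Tlr2 (0.59, 0.15, 0.00233), Slc11a1 (0.51, 0.10, 0.00011) and the Fc receptor gene Fcgr3 (0.46, 0.07, 1.34e-06), which take part in recognition and uptake of microbes, rose as well, and so did Mertk (0.23, 0.05, 0.00014), Plek (0.22, 0.05, 0.000834) and C1qb (0.20, 0.05, 0.00102). Aif1, which codes for the microglial protein IBA1 (-0.49, 0.10, 0.000123), Itgam (-0.39, 0.07, 2.79e-05), Unc93b1 (-0.26, 0.05, 8.6e-05), Lyz2 (-0.26, 0.09, 0.0179) and Dock2 (-0.21, 0.07, 0.0118) fell, as the called microglia markers did.

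Comparisons among sham mice were not the contrast that chose the genes, but the same sham mice were 1 side of that contrast. The 10 genes were tested in these comparisons with edgeR and Benjamini-Hochberg adjustment over all 17280 genes. The p-values are therefore not fully independent of the choice of the genes. Between strains, 1 gene in 1 contrast was called. Ctsb was lower in nRestore than in C57BL/6J sham mice by -0.14 (standard error 0.05, adjusted p = 0.0349), where 16.3% of all genes were called. It was not called with DESeq2 and gene-length offsets (-0.05, adjusted p = 0.621), with experiment in place of time point (-0.10, 0.405) or without the filter on low counts (-0.14, 0.0801). Grn (-0.14, 0.06, 0.102) and Mpeg1 (-0.14, 0.05, 0.0652) were as far below C57BL/6J without passing the test. In mice labelled IL-1R1 gKO (4.92% of genes called) and in eRestore mice (4.7%), 0 of the 10 were called by edgeR or DESeq2, 1 and 0 were at an unadjusted p under 0.05, and the estimates lay between -0.11 and 0.08.

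Male and female sham mice differed in 0.122% of genes and in 0 of the 10, by edgeR and by DESeq2 and also at an unadjusted p under 0.05, with estimates between -0.02 and 0.07. How far CHI effects of males and females lay apart comes from the contrast that chose the genes and is given for them without a test. The male minus the female effect lay between -0.17 and 0.05 at 9 h, -0.14 and 0.04 at 24 h and -0.20 and 0.05 at 72 h, the lowest at 72 h being that of Grn (standard error 0.08). Over all genes edgeR called 0% at 9 and 24 h and 0.00565% at 72 h for this difference, with 370, 916 and 657 genes at an unadjusted p under 0.05.

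Between times, sham mice differed in many genes between 9 h and later (47.9% called for 24 h against 9 h and 46.6% for 72 h against 9 h), and 7 of the 10 genes were called in each of these contrasts. Hexa was higher later, by 0.15 (standard error 0.04, edgeR adjusted p = 0.00225) at 24 h and 0.10 (0.04, 0.0371) at 72 h. Laptm5 (-0.27, 0.06, 0.000101 at 24 h), Grn (-0.23, 0.05, 0.000189), Ctsd (-0.22, 0.05, 8.56e-05), Ctsb (-0.16, 0.04, 0.000573), Mpeg1 (-0.15, 0.05, 0.00573) and Lamp1 (-0.15, 0.04, 0.00431) were lower at 24 h than at 9 h. At 72 h Ctsd (-0.26, 0.05, 3.39e-06), Grn (-0.26, 0.05, 3.89e-05), Laptm5 (-0.20, 0.06, 0.00285), Ctsb (-0.19, 0.04, 7.92e-05), Gusb (-0.17, 0.05, 0.00267) and Lamp1 (-0.17, 0.04, 0.000808) were lower than at 9 h. With DESeq2 and gene-length offsets Ctsb was at -0.08 (adjusted p = 0.179) and -0.10 (0.0698) and Gusb at 72 h at -0.11 (0.138), no longer called. Between 24 and 72 h edgeR called 0% of genes and 0 of the 10, with 1146 genes and 1 of the 10 at an unadjusted p under 0.05. Ctss and Ctsz were called in no contrast of sham mice.

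The sham levels show the same in CPM. Grn had a median of 42.7 CPM at 9 h, 38.7 at 24 h and 38.6 at 72 h, and Ctsd 303, 262 and 256 CPM. Hexa went from 33.8 to 38.8 and 36.7 CPM, opposite to Grn and Ctsd. Ctss stayed at 58.05, 58.2 and 58.4 CPM. A level at 9 h was therefore compared only with sham mice of 9 h.

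How far the genes varied together between mice of one group was tested after the mean of each strain, surgery, time and sex was subtracted, over all mice but the 3 that were alone in their group. Of 45 pairs, 44 had a Pearson r with a Benjamini-Hochberg adjusted permutation p under 0.05, and all 45 were above 0. No share of such pairs among other genes stands beside this count, so nothing is read from it. Permutations were within time points, so differences between experiments can enter these p-values. Before experiment was taken into account, Ctsb and Lamp1 were the closest pair (r = 0.755, Spearman's rho = 0.638), followed by Ctsd and Lamp1 (r = 0.753, rho = 0.682) and by Grn and Laptm5 (r = 0.707, rho = 0.667). For these pairs the permutation p of 1e-05 is the smallest that the permutations can give (adjusted p = 1.4e-05 for r and 1.6e-05 for rho), and r without the 2 mice farthest from the median was 0.736, 0.742 and 0.714. Ctss and Mpeg1 had r = 0.610 and rho = 0.576 with the same permutation p, and r = 0.582 without 2 mice. By r, Ctsb and Mpeg1 were the pair that missed the threshold (r = 0.117, rho = 0.125, adjusted permutation p = 0.11 and 0.087). By rho, Lamp1 missed it too with Gusb (rho = 0.124, adjusted permutation p = 0.079) and with Mpeg1 (rho = 0.137, 0.062).

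The relations differed between times. At 9, 24 and 72 h, r was 0.858, 0.292 and 0.681 for Ctsb and Lamp1, and 0.886, 0.178 and 0.644 for Ctsd and Lamp1. For Grn and Laptm5 it was 0.771, 0.473 and 0.740, and for Ctss and Mpeg1 0.554, 0.649 and 0.636. With the means of experiments removed as well, all 45 pairs stayed above 0, from 0.0862 to 0.678, and the order of the closest pairs changed, with 0.678 for Ctsb and Ctsz, 0.651 for Ctsd and Lamp1, 0.641 for Ctsb and Lamp1 and 0.606 for Ctss and Mpeg1. Within single experiments and times some pairs had mixed signs, and Lamp1 and Mpeg1 were above 0 in 3 of 9 (median r = -0.03). All genes of a mouse share a library, so depth and composition enter every pair.

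**Figure D4:**
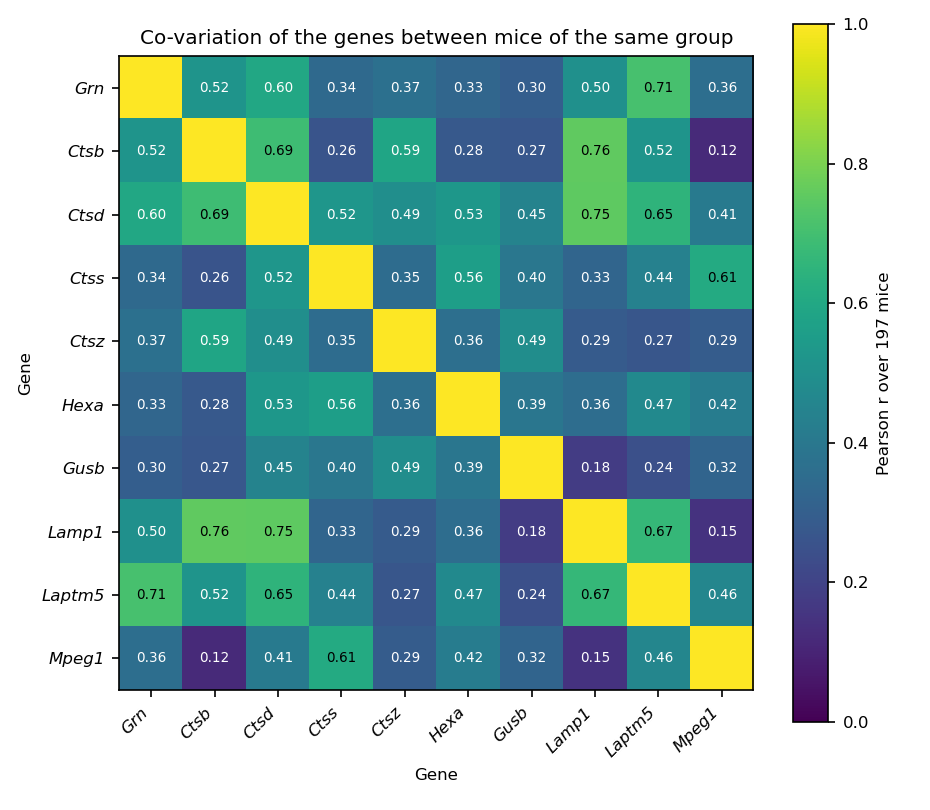
Pearson r between the 10 genes (both axes) of log2 CPM over all but 3 of the 200 mice after group means were subtracted; the colour scale runs from 0 to 1. Ctsb, Ctsd and Lamp1 form pairs of 0.69 to 0.76, Ctss and Mpeg1 are at 0.61, and Ctsb and Mpeg1 are lowest at 0.12.

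The genes most like them were found among 14608 genes by the same r with the mean of the phagocyte members (Ctss, Laptm5, Mpeg1) or of the lysosomal members (the other 7), over the same mice and without a test. Among the 8 closest to the phagocyte members were C1qc (r = 0.762), C1qa (0.698), C1qb (0.684), Csf1r (0.673), Gpr34 (0.669), Cd53 (0.648) and Axl (0.623), among them the complement genes and the receptor for the growth factor of microglia. Closest to the lysosomal members were the lysosomal protease gene Lgmn (0.808), Cd81 (0.799), Bsg (0.792), Sdhc (0.767), Itm2b (0.765), P4hb (0.762), Gpr37l1 (0.756) and Slc25a5 (0.750), a set that includes genes of membrane proteins (Cd81, Bsg, Itm2b) and of mitochondrial proteins (Sdhc, Slc25a5). With the mean of the 10 microglia markers, r was 0.600 for Mpeg1, 0.596 for Ctss and 0.570 for Laptm5, and lower for Ctsb (0.251) and Ctsz (0.191). With the mean of 7 neuron markers it was 0.439 for Ctsb, 0.373 for Grn and 0.301 for Lamp1 and below 0 for Ctss (-0.401), Gusb (-0.297), Hexa (-0.258) and Mpeg1 (-0.215).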

How the data were processed

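The mouse brain libraries (poly(A)-selected, paired-end, 1 hemisphere of PBS-perfused mice) were aligned to GRCm39 with STAR and quantified with Salmon by the authors, who deposited expected counts per gene, estimated by Salmon and not normalized. TPM values per gene were also deposited by the authors, and the strandedness is not given in the sources used here. Estimated counts were rounded and tested with edgeR 4.0.16 (R 4.3.3) by its robust quasi-likelihood test with TMM factors, for genes that reached 10 counts in a number of mice equal to the smaller group. Each strain and time was fitted alone with sex and age (age only for nRestore at 72 h), and all 4 strains together with strain added. P-values were Benjamini-Hochberg adjusted over all genes and called under 0.05. CPM values use TMM-scaled library sizes. Correlations used 100000 permutations within time points.

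The 10 genes and all lists were chosen with earlier results of these data known. Named were all 10 genes, up to 10 genes per direction and time with the smallest p among called list genes, relatives (Psap, Sort1, Tmem106b, Tfeb, Cd68, Lamp2, Ctsl) and the 8 genes most like each group; called genes beyond these were named after their values were seen. DESeq2 1.42.0 with gene-length offsets, the study's own kind of test, was an alternative, as were RLE factors, no filter, no covariates, experiment in place of age, the largest experiment and leaving out single sham mice. The highest correlation between 2 libraries was 0.991, so none was a copy of another. The labels name an animal for each sample. Some list genes that this rule names are not reported here. Sequences come from the GRCm39 genome with the starts of GENCODE vM39 canonical transcripts.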

Additional observations from a re-analysis of the deposited data

Results flagged for a closer look

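Each of the 10 genes was searched, in every strain, time and surgery group of 4 to 10 mice, for a mouse whose gap to its nearest neighbour was a large share of the group's range (Dixon's test). Of 160 such searches, 16 (10%) found a mouse, where chance finds about 1 in 20, and they came from 13 libraries with at most 2 genes each.

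In sham groups, Ctsb was lowest at 445.826 CPM in 1 mouse labelled IL-1R1 gKO at 24 h (nearest mouse 566.669) and at 468.992 CPM in 1 nRestore mouse at 24 h (565.664). Grn was lowest at 27.5942 CPM in 1 eRestore (37.1035) and at 29.5968 CPM in 1 nRestore sham mouse at 72 h (35.4938). Mpeg1 was lowest at 34.7997 CPM in 1 eRestore (37.7548) and at 29.3451 CPM in 1 nRestore sham mouse at 24 h (33.3972). Ctsd was highest at 293.761 CPM in 1 nRestore sham mouse at 24 h (259.224). A further nRestore sham mouse at 72 h was highest for both Ctsz, at 35.5967 CPM (25.664), and Lamp1, at 294.679 CPM (258.451).

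In CHI groups every mouse found was the highest. An eRestore mouse at 24 h held 105.332 CPM of Ctss (71.9537) and 65.6526 CPM of Mpeg1 (43.576). The nRestore CHI library at 72 h whose sex did not match its label held 699.772 CPM of Ctsb (574.413) and 291.886 CPM of Lamp1 (259.018). Laptm5 was highest at 43.1926 CPM in 1 nRestore mouse at 72 h (37.1643). At 9 h, 1 nRestore mouse had 16.8958 CPM of Gusb (14.5794) and 1 had 38.7519 CPM of Mpeg1 (29.5741). The C57BL/6J CHI mouse with the highest levels at 72 h was in a group of 14, which was not searched.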

How the results depend on the processing

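No value of the 10 genes that was called as reported changed sign under any alternative, so the sign changes given next were of values not called. Over the 4 strains, 60, 70 and 80 alternative values at 9, 24 and 72 h all moved by less than 1 SD, and 3, 2 and 0 of them changed sign around 0. In single strains, 8 of 410, 8 of 430 and 1 of 450 moved further and 33, 35 and 2 changed sign. Of the tests in sham mice, the 1 call between strains (Ctsb in nRestore mice) fell to 0 with DESeq2, with experiment in place of time point and without the filter, and Hexa at 72 h against 9 h was lost without the filter (adjusted p = 0.059).

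Counts of the lists over the 4 strains fell in the largest experiment alone, to 6 lysosomal genes at 9 h (16 as reported), 0 lysosomal and 0 phagocyte genes at 24 h (1 and 3), and 3 and 11 at 72 h (6 and 24). At 24 h, 4 lysosomal genes were called with DESeq2, 4 without covariates and 0 without the filter, and 13 phagocyte genes without covariates. For both lists together, C57BL/6J at 24 h (1 as reported) had 2 with DESeq2, 0 without covariates, 3 without the filter and 0 to 1 leaving out single sham mice. C57BL/6J at 72 h (0) had 4 with DESeq2 and 5 with experiment in place of age, and at 9 h (19) 12 to 16 leaving out single sham mice. The eRestore mice at 9 h (12) had 5 with experiment in place of age, 4 without covariates, 7 without the filter and 4 to 19 leaving out single sham mice. Mice labelled IL-1R1 gKO at 24 h (0) had 2 with DESeq2, 1 without covariates, 1 without the filter and 0 to 1 leaving out single sham mice. The nRestore mice at 9 h (1) had 4 with DESeq2, 7 without the filter and 0 to 1 leaving out single sham mice. The cause of these changes was not tested. The other counts stayed within 1.5 times.

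Counts over all genes moved by over 1.5 times as well, given here as percent called. The largest experiment called 9.48%, 0.141% and 0.223% at 9, 24 and 72 h (26.5%, 1.96% and 0.717% as reported), and at 24 h the fit without the filter called 0.593% and that with experiment in place of age 1.28%. DESeq2 called 1.02% in mice labelled IL-1R1 gKO at 9 h (0.199%) and 0.501% at 24 h (0.0059%), and 1.95% in nRestore mice at 9 h (0.608%); its counts for the other single strains are given above. Without the filter the calls were 2.7% in nRestore mice at 9 h, 1.05% in C57BL/6J (0.404%), 0.0465% in mice labelled IL-1R1 gKO, 0.305% in eRestore and 0.00949% in nRestore mice at 24 h (0%), and 0.0126% in C57BL/6J at 72 h (0%). Without covariates they were 0.126% in mice labelled IL-1R1 gKO, 4.42% in eRestore (7.34%) and 1.36% in nRestore mice at 9 h, and 0.0354% in mice labelled IL-1R1 gKO at 24 h. With experiment in place of age, mice labelled IL-1R1 gKO had 0.464% at 9 h and 0% at 24 h, and C57BL/6J 0.107% at 72 h. Without the high C57BL/6J mouse, 0.0119% were called at 72 h in that strain.
Experiment in place of age could not be fitted for nRestore mice at 9 h, who came from a single experiment. No paired analysis was possible because the labels give no replicate numbers that CHI and sham mice share. Leaving out the 2 libraries with unmatched sex, or the high C57BL/6J mouse, was chosen after seeing the data. In the smallest groups of 4 to 6 mice, a p over the threshold does not show that levels did not differ.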
